A study of Mus musculus with 8 samples.

Results

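Gpr31b, Gpr84, Gpr183, Gpr65, Gpr155 and Gpr83 are 6 membrane receptors that were taken as a set by their gene symbols from the 46983 genes of a deposited RNA sequencing table of mouse microglia, the resident macrophages of the brain. The set was put together with the measured difference between libraries named Qk-KO and libraries named WT already known. The members' values in that comparison are therefore a description and carry no test here. All 6 passed the filter on low values, as did 22546 genes in all.

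The study sequenced RNA of microglia from the corpus callosum of FvB/C57BL6 hybrid mice, in 4 libraries named Qk-KO and 4 named WT. Qk-KO mice carried Cx3cr1-CreER with 2 floxed Qk alleles (QK LoxP/LoxP), and WT mice carried the same Cre with 1 floxed allele (QK LoxP/+). All mice received tamoxifen at 8 weeks of age and then 0.2% cuprizone for 6 weeks. Cuprizone binds copper and is fed to mice to make oligodendrocytes die, which demyelinates the corpus callosum. WT mice were thus not free of Cre or of a floxed allele, and Cx3cr1 also drives the recombinase in other macrophages. Qk encodes quaking, an RNA-binding protein that acts on splicing and RNA stability. The labels contradict each other for 4 libraries: by the genotype field, named Qk-KO 1 and 3 were WT and named WT 2 and 3 were Qk-KO. Each pairing of name and field holds 2 libraries. Libraries are called by their names below, and the genotype field is used as a separate grouping of the same 8 libraries. The labels do not say whether libraries came from separate animals, so the spread behind each p-value is that between libraries and could be technical.

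G protein-coupled receptors cross the cell membrane and pass the binding of a ligand outside the cell to G proteins inside it, which raise or lower cyclic AMP or release calcium. Several of those on microglia and macrophages sense small metabolites such as fatty acids, oxidised cholesterol, lactate or protons rather than hormones. Orphan receptors are those whose natural ligand was long unknown or is still disputed.

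Quaking binds RNA at a short core, ACUAAC or ACUAAU, often in 3′ untranslated regions. Matches to this core in the members are shown because the study targeted Qk. Introns and coding parts were not searched. Both forms of the core were searched on the sense strand of the 3′ untranslated region of the longest coding transcript, written as ACTAAC and ACTAAT. Gpr83 held 2 matches, and Gpr155 and Gpr183 held 1 each. The sites below are 30 bases of the transcript strand, from GENCODE M21 on GRCm38, with the core in capitals.
Gpr83, 54 bases after the stop codon, chr9:14868841-14868870, plus strand: aattgaccagacACTAACagagttggaaag
Gpr83, 1478 bases after the stop codon, chr9:14870265-14870294, plus strand: gggttttcttaaACTAATcaatccatggga
Gpr155, 695 bases after the stop codon, chr2:73342745-73342774, minus strand: tctatctaaactACTAATgtgtaccaatac
Gpr183, 260 bases after the stop codon, chr14:121953757-121953786, minus strand: tggcaaaagacgACTAATtgcactgtatat
Gpr31b, Gpr65 and Gpr84 held neither form in 3′ untranslated regions of 307, 541 and 223 bases. Longer regions hold a match more often. Of such regions of tested protein-coding genes between 80% and 125% as long, a match was present in 45.75% for Gpr83, 45.09% for Gpr155 and 36.94% for Gpr183, and in 10.94% for Gpr31b, 15.25% for Gpr65 and 6.84% for Gpr84. A match is a string of letters, not a measured binding site.

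The promoters were read from RefSeq on GRCm38.p6, 250 bases before to 50 after the gene start, and all 6 receptors matched. The core GAGGAA of PU.1, a transcription factor of macrophages and microglia, was present on either strand in 2 of them, Gpr31b and Gpr65. Across all promoters in the table, 28.31% held it. Those promoters are shown with the core in capitals; it starts 74 bases before the Gpr31b start and, read as TTCCTC, 48 bases before the Gpr65 start.
Gpr31b, chr17:13052231-13052530, minus strand: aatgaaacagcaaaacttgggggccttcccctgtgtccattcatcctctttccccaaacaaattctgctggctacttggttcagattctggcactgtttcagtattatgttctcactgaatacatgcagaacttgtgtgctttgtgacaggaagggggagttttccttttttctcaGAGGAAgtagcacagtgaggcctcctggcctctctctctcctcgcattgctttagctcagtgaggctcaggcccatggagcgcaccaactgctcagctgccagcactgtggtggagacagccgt
Gpr65, chr12:98268385-98268684, plus strand: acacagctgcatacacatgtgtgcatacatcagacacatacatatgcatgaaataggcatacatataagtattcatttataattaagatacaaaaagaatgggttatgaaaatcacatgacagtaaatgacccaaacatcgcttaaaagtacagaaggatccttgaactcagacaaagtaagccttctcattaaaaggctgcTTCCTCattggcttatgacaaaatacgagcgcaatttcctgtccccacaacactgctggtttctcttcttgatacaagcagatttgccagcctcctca
None of the 6 windows held the AP-1 site TGANTCA, the C/EBP site TTGCNCAA or the cyclic AMP response element core TGACGT, which 7.93%, 2.92% and 7.64% of all promoters held. The Gpr155 and Gpr83 windows were rich in G and C, at 70.33% and 67.0%, against 50.67% for Gpr31b, 47.0% for Gpr84, 38.33% for Gpr65 and 35.33% for Gpr183.

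The targeted gene, Qk, had log2 values of 15.59, 15.40, 15.69 and 15.29 in named Qk-KO 1 to 4, against 15.50, 15.38, 15.41 and 15.37 in named WT 1 to 4. Under the names Qk averaged 15.49 ± 0.18 in named Qk-KO and 15.415 ± 0.06 in named WT libraries (SD, n = 4 each), and the groups overlapped. By genotype field Qk averaged 15.37 ± 0.06 in field Qk-KO and 15.54 ± 0.14 in field WT libraries (SD, n = 4 each), which also overlapped. These are totals over the whole gene, WT mice carry a floxed allele too, and which exons were floxed is not given here. Neither grouping separated the Qk values, and which label is right was not tested. The 10 microglial markers summed to 13699 to 16502 CPM, a signal scaled to the same total in every library, in named Qk-KO and 17345 to 19822 CPM in named WT libraries, which did not overlap. The sums of each of 13 other cell types overlapped between the named groups, and no marker of any list was at 0. In 6 of these 13 lists every marker had a lower mean in named Qk-KO than in named WT: oligodendrocytes and their precursors, astrocytes, neurons, mural cells and fibroblasts, and erythroid cells. Libraries number 4 of both names stood apart in oligodendrocyte markers, at 274.9 CPM in named Qk-KO 4 beside 121.0 to 127.5 in the other named Qk-KO libraries, and at 323.5 CPM in named WT 4 beside 129.4 to 141.9 in the other named WT libraries. Depth also moved with the names: the size factors read from the table were 0.753 to 0.997 in named Qk-KO and 1.05 to 1.26 in named WT libraries. The part of microglial share, depth and other cells in the members' differences was not tested. In such bulk samples fewer cells of a type and less RNA per cell cannot be told apart.

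The 6 receptors spanned a wide range of levels when set per length, in CPM per kb of exon over all 8 libraries. Gpr84 was highest at 55.5 ± 6.66 and Gpr183 next at 52.4 ± 4.46 (SD, n = 8), and these neighbours did not differ beyond their spread, with ranges of 45.8 to 64.6 and 46.3 to 58.1. Gpr65 followed at 29.4 ± 4.20, between 25.8 and 37.8. Gpr155 lay at 12.6 ± 2.21, between 9.80 and 16.2. Gpr31b lay at 1.90 ± 0.607, between 1.28 and 2.72, and Gpr83 at 0.645 ± 0.231, between 0.396 and 1.04. Apart from Gpr84 and Gpr183, no neighbours in this order overlapped in any library. Among 54 tested genes with a Gpr number, Gpr34, a lysophospholipid receptor, was first at 154.5 CPM per kb, and Gpr84, Gpr183 and Gpr65 took ranks 2, 3 and 4. Gpr155, Gpr31b and Gpr83 took ranks 9, 17 and 23.

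**Figure D1:**
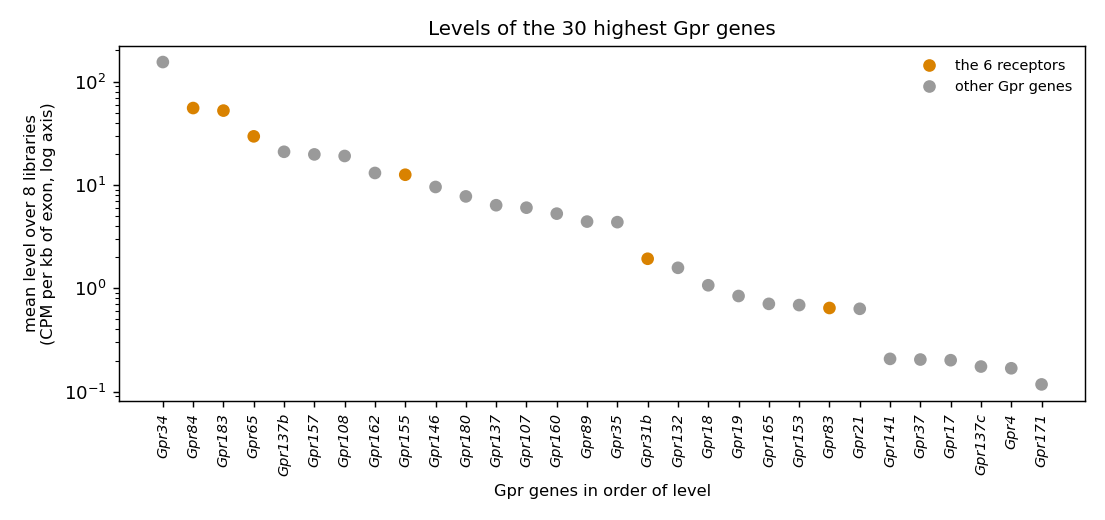
Mean level over the 8 libraries, in CPM per kb of exon on a log axis, of the 30 highest genes with a Gpr number; orange points are the 6 receptors and grey points the others. Gpr84, Gpr183 and Gpr65 stand just after Gpr34, while Gpr155, Gpr31b and Gpr83 lie at ranks 9, 17 and 23.

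Between the named groups, 3 receptors were higher in named Qk-KO and 3 were lower, and the groups of 4 libraries did not overlap for 3 of the 6: Gpr31b, higher, and Gpr155 and Gpr83, lower. Over all 22546 genes tested, 5.73% did not overlap, 3.04% higher and 2.7% lower. In the authors' deposited table the same 3 receptors had an adjusted p under 0.05, 1 higher and 2 lower, beside 1.22% of the 14150 genes given such a value, 0.551% higher and 0.671% lower. These are the values that chose the members and nothing is read from the counts. Values below are the authors' deposited log2 values, in the order of library numbers 1 to 4. They appear shrunken towards a gene's mean where reads are few, so that differences of low genes are understated.

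**Figure D2:**
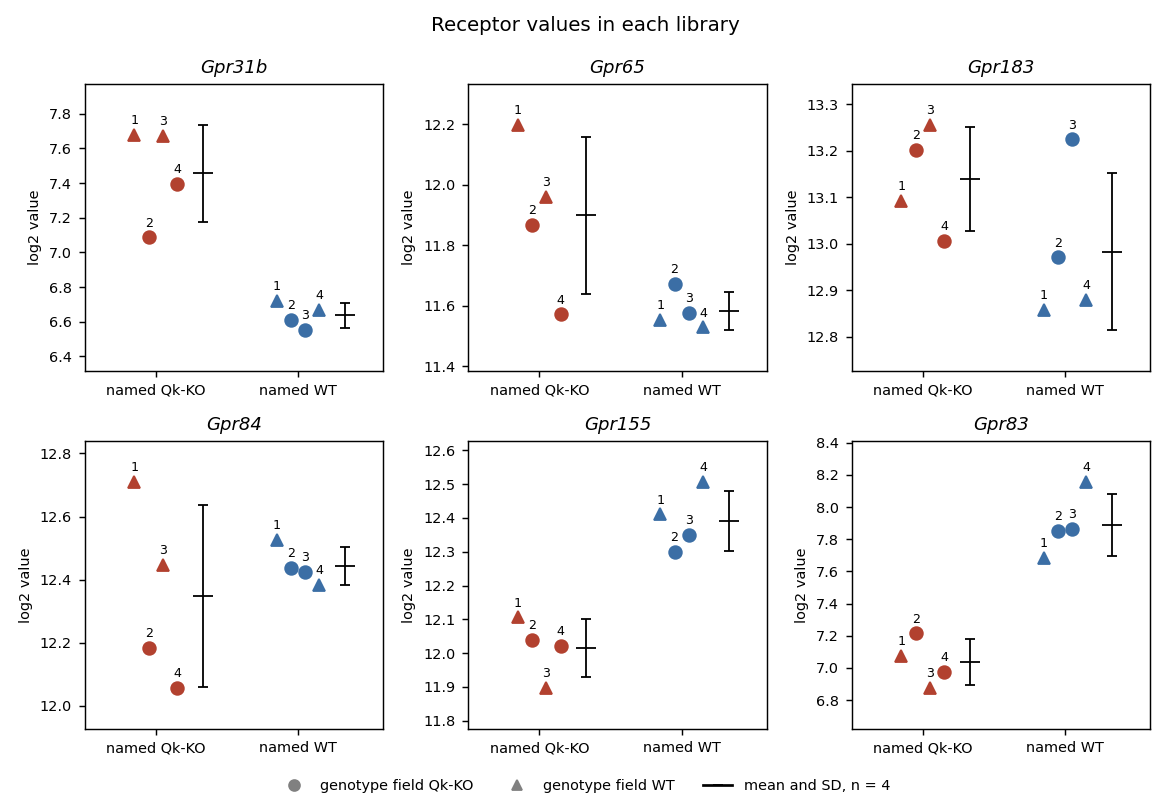
Deposited log2 value of each receptor in each library, named Qk-KO in red and named WT in blue, numbered by replicate; circles are libraries whose genotype field says Qk-KO, triangles those whose field says WT, and bars give the mean and SD (n = 4). Gpr31b, Gpr155 and Gpr83 separate the named groups, while Gpr65, Gpr183 and Gpr84 overlap.

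Gpr31b is a mouse counterpart of human GPR31, which was described as a receptor of a lipoxygenase product of arachidonic acid, and in mice it was described as a lactate and pyruvate receptor of intestinal Cx3cr1-positive cells. It is identified as ENSMUSG00000071311.1 and lies at chr17:13051014-13052296 on the minus strand of mm10, as 1 exonic block, 2.73 Mb from Qk on the same chromosome. Its log2 values were 7.68, 7.09, 7.67 and 7.40 in named Qk-KO libraries, against 6.72, 6.61, 6.55 and 6.67 in named WT libraries. Every named Qk-KO library lay above every named WT library, with a gap of 0.37. The means were 7.46 ± 0.28 in named Qk-KO and 6.64 ± 0.07 in named WT (SD, n = 4 each), a log2 difference of 0.82 or 1.76-fold. The authors' deposited table gives a log2 fold change of 0.93 with a standard error of 0.19 and an adjusted p of 0.000731. The difference was 0.55 in the 4 libraries whose name and field say the same and 1.09 in the 4 where they are opposite. Both libraries numbered 4 are in the former set. At 2.48 CPM this is a low transcript, and its reads are uncertain: 79.2%, 59.3% and 49.2% of its 31-base stretches also occur in the transcripts AC166110.3, Gm6553 and Gpr31a, which are not rows of the table used here.

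Gpr84 is a receptor for medium-chain fatty acids that couples to inhibitory G proteins and is known to be induced in inflamed microglia. It is ENSMUSG00000063234.4, at chr15:103308235-103310612 on the minus strand, with 2 exonic blocks. Its log2 values were 12.71, 12.18, 12.45 and 12.06 in named Qk-KO libraries, against 12.52, 12.44, 12.42 and 12.38 in named WT libraries. The named Qk-KO libraries lay both above and below the narrow band of named WT. The means were 12.35 ± 0.29 in named Qk-KO and 12.44 ± 0.06 in named WT (SD, n = 4 each), a log2 difference of -0.09. The sign turned to 0.0038 without named Qk-KO 4. The difference was -0.33 in the 4 libraries whose labels agree, which include both numbered 4, and 0.15 in the 4 whose labels disagree. Its exons share 681 bases with the antisense gene Gm49482, and the sources used here do not say whether counting used the strand.

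Gpr183, also known as EBI2, guides immune cells along gradients of dihydroxylated cholesterol. It is ENSMUSG00000051212.7, at chr14:121952551-121965195 on the minus strand, with 3 exonic blocks, inside Ubac2 on the opposite strand but with no exonic base in common. Its log2 values were 13.09, 13.20, 13.26 and 13.01 in named Qk-KO libraries, against 12.86, 12.97, 13.22 and 12.88 in named WT libraries. Named WT 3 lay among the named Qk-KO libraries, and the other 3 named WT libraries lay below all of them. The means were 13.14 ± 0.11 in named Qk-KO and 12.98 ± 0.17 in named WT (SD, n = 4 each), a log2 difference of 0.16 or 1.11-fold. At 151.3 CPM it gave the most reads of the 6.

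Gpr65 senses extracellular protons and raises cyclic AMP in macrophages and lymphocytes. It is ENSMUSG00000021886.6, at chr12:98268635-98276644 on the plus strand, with 2 exonic blocks. Its log2 values were 12.20, 11.87, 11.96 and 11.57 in named Qk-KO libraries, against 11.55, 11.67, 11.58 and 11.53 in named WT libraries. Named Qk-KO 1, 2 and 3 lay above every named WT library, and named Qk-KO 4 lay among them. The means were 11.90 ± 0.26 in named Qk-KO and 11.58 ± 0.06 in named WT (SD, n = 4 each), a log2 difference of 0.32 or 1.25-fold. Without both libraries numbered 4 the difference was 0.41. Its exons share 511 bases with the antisense gene Gm47566.

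Gpr155, also called LYCHOS, sits in the lysosomal membrane, where it was described as a cholesterol sensor that activates the growth kinase complex mTORC1. It is ENSMUSG00000041762.16, at chr2:73341506-73386572 on the minus strand, with 19 exonic blocks. Its log2 values were 12.11, 12.04, 11.90 and 12.02 in named Qk-KO libraries, against 12.41, 12.30, 12.35 and 12.51 in named WT libraries. Every named Qk-KO library lay below every named WT library, with a gap of 0.19. The means were 12.02 ± 0.09 in named Qk-KO and 12.39 ± 0.09 in named WT (SD, n = 4 each), a log2 difference of -0.38, and the size is 1.30-fold. The authors' deposited table gives -0.38 with a standard error of 0.08 and an adjusted p of 0.000366. The difference was -0.34 without both libraries numbered 4.

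Gpr83 is a neuropeptide receptor, described as the receptor of a peptide cut from proSAAS, and is also known from regulatory T cells. It is ENSMUSG00000031932.14, at chr9:14860210-14870789 on the plus strand, with 4 exonic blocks. Its log2 values were 7.07, 7.21, 6.88 and 6.97 in named Qk-KO libraries, against 7.68, 7.85, 7.86 and 8.15 in named WT libraries. Every named Qk-KO library lay below every named WT library, with a gap of 0.47. The means were 7.04 ± 0.14 in named Qk-KO and 7.89 ± 0.20 in named WT (SD, n = 4 each), a log2 difference of -0.85, and the size is 1.81-fold. The authors' deposited table gives -0.93 with a standard error of 0.17 and an adjusted p of 8.71e-05. At 3.29 CPM the transcript was low. The summed markers of T and NK cells, which could bring Gpr83, overlapped at 4.72 to 7.36 CPM in named Qk-KO and 4.12 to 8.36 CPM in named WT, and those of neurons overlapped at 4.31 to 18.0 CPM in named Qk-KO and 7.45 to 15.8 CPM in named WT. Their part in the difference was not tested.

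The receptors also differed in how much the libraries of a name varied. The SD among named Qk-KO libraries was 4.82 times that among named WT libraries for Gpr84, 4.14 times for Gpr65 and 3.91 times for Gpr31b, beside a median ratio of 1.46 over 13463 genes of at least 1 CPM. These 3 ratios stood at the 96.2, 94.3 and 93.4 percentiles of those genes. The ratio was 0.977 for Gpr155, 0.738 for Gpr83 and 0.666 for Gpr183. Within named Qk-KO, Gpr84 and Gpr65 had the same order of libraries, with 1 highest, then 3, 2 and 4. Named Qk-KO 1 and 3 are those whose genotype field says WT.

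The genotype field did not choose the members, so it allows a test. None of the 6 receptors was called by limma between field Qk-KO and field WT libraries (adjusted p = 0.9995 for each), and all 6 overlapped. Over all 22546 genes limma called 0 (0.0%), with 602 (2.67%) at an unadjusted p under 0.05, and 1.85% of genes did not overlap. Gpr84 averaged 12.28 ± 0.19 in field Qk-KO and 12.52 ± 0.14 in field WT (SD, n = 4 each), a limma difference of -0.24 with a 95% interval of -0.47 to -0.01 before adjustment. Gpr31b averaged 6.91 ± 0.40 in field Qk-KO and 7.18 ± 0.57 in field WT, a difference of -0.27 with an interval of -0.95 to 0.40. The intervals were -0.48 to 0.20 for Gpr65, -0.15 to 0.31 for Gpr183, -0.37 to 0.26 for Gpr155 and -0.68 to 0.73 for Gpr83. These intervals come from a fit without the name, so a difference between names adds to their spread. With the name as a covariate they were -0.60 to 0.05 for Gpr31b, -0.39 to 0.12 for Gpr65 and -0.13 to 0.29 for Gpr183. They were -0.48 to -0.003 for Gpr84, -0.20 to 0.10 for Gpr155 and -0.31 to 0.37 for Gpr83. In that fit limma called none either (adjusted p = 0.9995 for each). Neither set of intervals can show that the field groups are alike.

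**Figure D3:**
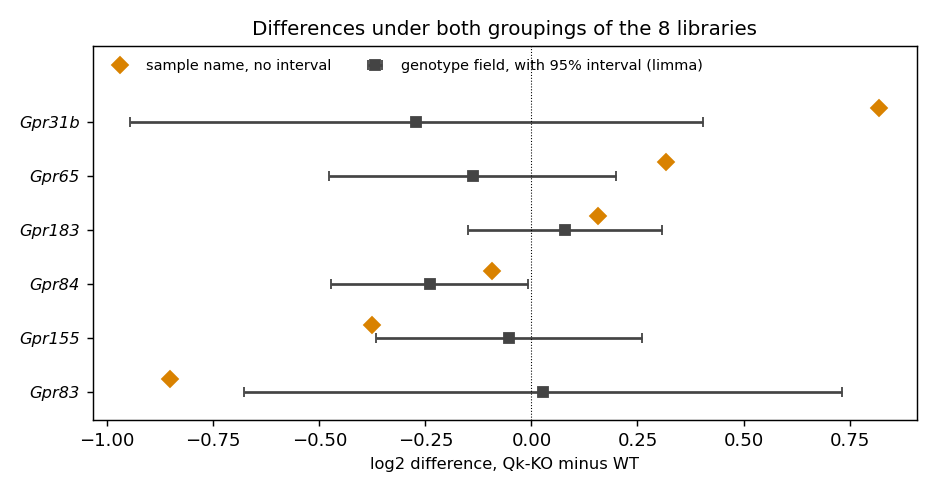
Log2 difference, Qk-KO minus WT, of each receptor when the 8 libraries are grouped by sample name (orange diamonds, no interval because this contrast chose the genes) or by genotype field (grey squares with the 95% interval of limma). The field intervals of 5 receptors include 0, and that of Gpr84 runs from -0.47 to -0.01 before adjustment.

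Because name and field cross, each pairing has a mean of 2 libraries. Gpr84 was at 12.12 where both say Qk-KO, 12.58 where only the name does, 12.43 where only the field does and 12.45 where both say WT. In the same order of pairings Gpr65 was at 11.72, 12.08, 11.62 and 11.54 and Gpr31b at 7.24, 7.67, 6.58 and 6.69. The libraries named Qk-KO with a WT field were thus the highest pairing for these 3 genes. Gpr155 was at 12.03, 12.002, 12.32 and 12.46 and Gpr83 at 7.09, 6.98, 7.86 and 7.92, so that both pairings named Qk-KO lay below both named WT. Gpr183 was at 13.10, 13.17, 13.10 and 12.87, with the libraries that both labels call WT lowest. Whether the field difference changed with the name was tested as an interaction in limma, a test added after the values were seen. It called none of the 6 receptors, with -0.43 for Gpr84 (adjusted p = 0.381) and -0.44 for Gpr65 (adjusted p = 0.412), while 5 of 22546 genes were called.

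The other genes with a Gpr number give the setting. Of 66, 48 were tested, 12 with a positive and 36 with a negative difference between named Qk-KO and named WT, and their median was -0.15. Over all tested genes the median was -0.0044. Among the 22 of at least 1 CPM, 7 differences were positive and 15 negative, with a median of -0.05. The authors' deposited table called 1 of 22 lower and none higher, beside 1.22% of genes in either direction, and limma called none, beside 1 lower of all genes tested (0.00444%) and 8.26% at an unadjusted p under 0.05. The gene called in the authors' deposited table, and not by limma, was Gpr34. It was at 13.94, 14.02, 13.54 and 14.04 in named Qk-KO libraries, against 14.33, 14.21, 14.34 and 14.63 in named WT libraries. The named groups did not overlap, and the authors' deposited table gives -0.49 with an adjusted p of 0.0266. The named groups also did not overlap for Gpr174 and Gpr179, both lower in named Qk-KO and both under 1 CPM. Of the most abundant, Gpr137b differed by 0.03, Gpr157 by 0.45, Gpr107 by -0.05 and Gpr146 by -0.16, none of them called. The extremes were Gpr176 at 0.48 and Gpr37 at -1.02, neither called.

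Partners of the metabolite receptors were described from lists, with no gene called by limma in any. For Gpr183, the enzymes that make or break down its oxysterol ligand were not called: Ch25h, which makes the precursor, differed by 0.16 and Cyp27a1 and Hsd3b7 by 0.16 each, while Cyp7b1, which adds the further hydroxyl group, lay at 0.320 CPM and differed by -0.56 and Hsd11b1 by -0.44. For Gpr65, the proton sensors Gpr4 and Gpr132 differed by -0.26 and 0.18, neither of them called. For Gpr84, 14 of 19 other fatty acid and metabolite receptors were tested and 0 called, with a median of -0.20. Hcar2, the niacin and ketone body receptor, was at 13.63, 13.40, 13.89 and 11.88 in named Qk-KO libraries, against 12.97, 13.04, 12.96 and 11.85 in named WT libraries. The library numbered 4 was the lowest under each name, and the difference of 0.49 was not called. Adora3, an adenosine receptor, differed by -0.09, and Ffar1, a long-chain fatty acid receptor, by -0.73. The named groups did not overlap for Ffar1, which lay at 0.670 CPM. For Gpr31b, 11 of 12 lipoxygenase and lactate genes were tested and 0 called; Ldha differed by 0.11, Ldhb by -0.19 and Alox12 by -0.33.

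**Figure D4:**
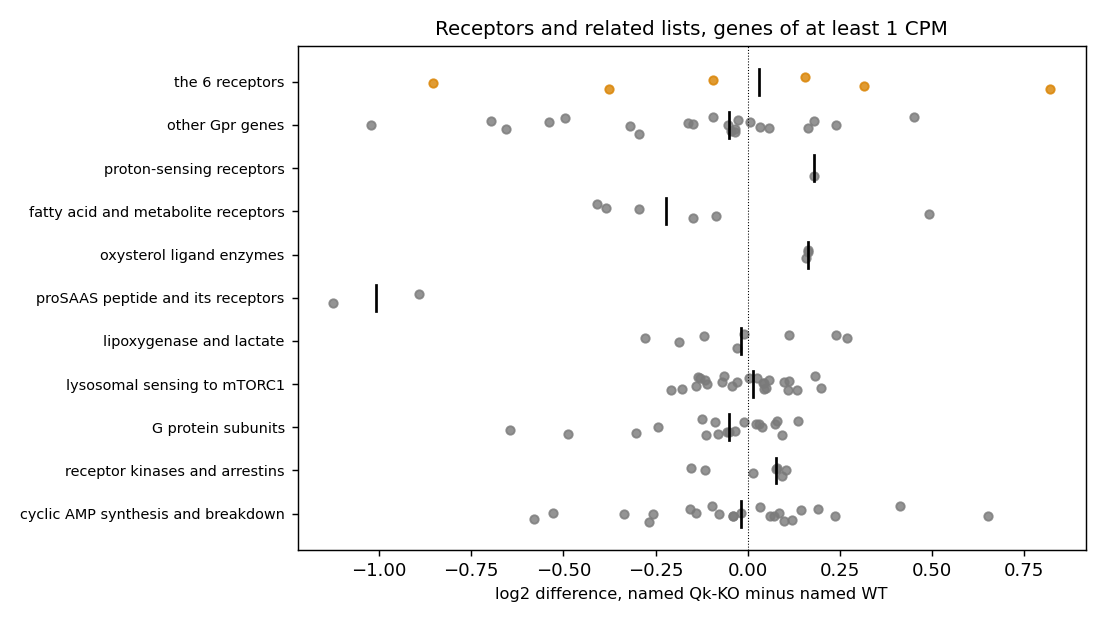
Log2 difference between named Qk-KO and named WT of the 6 receptors (orange) and of the other genes of at least 1 CPM in each list (grey), with the median of each row as a black bar. Gpr31b at 0.82 lies to the right of every point drawn and Gpr83 at -0.85 lies near the left edge, where Cpe at -1.12, Gpr37 at -1.02 and Pcsk1n at -0.89 lie further out.

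For Gpr83, the genes of the proSAAS peptide were not called either. Cpe, a carboxypeptidase that trims neuropeptides, was at 10.71, 9.85, 8.91 and 12.47 in named Qk-KO libraries, against 11.88, 11.02, 11.28 and 12.27 in named WT libraries. The library numbered 4 was the highest under each name, and the groups overlapped. Its difference was -1.12, and that of Pcsk1n, which encodes proSAAS, was -0.89. Pcsk2 and Pcsk1, which cut propeptides, differed by -0.55 and -0.12, and Gpr171, another receptor of a proSAAS peptide, by 0.02. Astrocyte markers, whose cells also make Cpe, summed to 78.5 to 461.8 CPM in named Qk-KO and 191.1 to 523.4 CPM in named WT libraries; their part was not tested.

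For Gpr155, 25 other genes of lysosomal amino acid and cholesterol sensing to mTORC1 were tested and 0 called, with a median of 0.0026, 13 positive and 12 negative. Npc1, which exports cholesterol from lysosomes, differed by -0.21, Slc38a9, a lysosomal arginine sensor, by -0.18, and Rptor, a subunit of mTORC1, by -0.14. The named groups did not overlap for these 3, all lower in named Qk-KO, nor for Rragd, a Rag GTPase, at 0.20, beside 5.73% of all genes tested, 3.04% higher and 2.7% lower. Slc38a9, Rptor and Rragd were picked after their values were seen. Fnip2, a partner of folliculin, differed by 0.10.

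Downstream of the receptors, 27 G protein subunits were tested and 0 called, with a median of -0.09; Gnas, which raises cyclic AMP, differed by -0.01, Gnai2, which lowers it, by -0.09, and Gnao1 by -0.65. Of the 7 receptor kinases and arrestins 0 were called, and Adrbk1 and Arrb2 differed by 0.08 each and Adrbk2 by -0.15; the named groups did not overlap for Arrb2. Of 24 genes of cyclic AMP synthesis and breakdown given an adjusted p in the authors' deposited table, that table called 1, Creb1, a transcription factor that cyclic AMP activates. Over all genes with such a value it called 1.22%, 0.551% higher. Creb1 was at 11.95, 12.07, 11.97 and 11.999 in named Qk-KO libraries, against 11.83, 11.77, 11.83 and 11.79 in named WT libraries. Every named Qk-KO library lay above every named WT library, the difference was 0.19, and the authors' adjusted p was 0.0310. Adcy7, an adenylyl cyclase, differed by 0.06, Pde3b, a phosphodiesterase, by 0.15, and Adcy2 by -0.89, none of them called.

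The genes whose log2 values followed each receptor most closely over the 8 libraries were taken from 11808 protein-coding genes of at least 1 CPM, as a description with Pearson's r over libraries that share name, depth and cell make-up. For Gpr83 they were Zfyve28 (r = 0.992), Ptrhd1 (0.979) and Rnf5 (0.974), and for Gpr155 they were Pqlc2 (0.985), Sirt2 (0.982) and Dagla (0.980). Pqlc2 is a lysosomal transporter of cationic amino acids. For Gpr31b they were Dennd2c (0.979), Cdc25a (0.963) and Ms4a4a (0.951), and for Gpr65 they were Supt6 (0.979), Rbbp8 (0.971) and Taf7 (0.968). For Gpr84 they were Mapre1 (0.982), Tnip3 (0.982) and Trp53inp2 (0.969), and for Gpr183 they were Hcst (0.962), Ube2w (0.954) and mt-Atp6 (0.941). Among the receptors themselves, r over the 8 libraries was 0.953 between Gpr155 and Gpr83, the pair lower in named Qk-KO, and 0.767 between Gpr31b and Gpr65.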

How the data were processed

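The authors used FastQC, HISAT2, StringTie and DESeq2 with mm10, per the submitters' processing notes, which give no roles or versions. The authors deposited 1 table of 46983 genes. Its 8 library columns hold log2 values, read as regularized, and 19497 genes without reads are listed at 0. Per the file headers it also holds the authors' mean normalized signal, their log2 fold change and its error, the test's score, and a p-value before and after adjustment. The table gives no counts by library, so limma 3.58.1 in R 4.3.3 was run on the deposited log2 values, with an intensity trend, robust empirical Bayes and no pseudocount. Genes with any reads entered where 4 or more libraries had a normalized value of 1 or more, and calls were made at a Benjamini-Hochberg adjusted p under 0.05 over all 22546 genes. CPM is the mean normalized signal scaled to a common total, with 56.8 signal units to 1 CPM, and in single libraries the power of 2 of the log2 value scaled likewise. Per-length levels divide it by the exonic bases of GENCODE M21, which shared 98.9% of the gene identifiers without versions. Size factors were read from genes with reads in 1 library. Low genes appear shrunken in these values. Depth moved with the names, and its effect on the differences and their precision was not tested. The 6 receptors, the gene lists and the markers were chosen with earlier results of these data known. Named genes of the lists are those called, all genes of lists of up to 6, and otherwise the 2 most abundant and the gene with the largest difference. Among genes with a Gpr number they are those called, the 5 most abundant and both extremes. For each receptor the 3 genes of highest r are named. A few genes outside these rules (Gpr174, Gpr179, Slc38a9, Rptor and Rragd) were named after their values were seen, and some genes of the lists are not reported here. Alternatives were other filters, quantile and median scaling, name or field as a covariate, a replicate block and leaving out libraries.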

Additional observations from a re-analysis of the deposited data

Results flagged for a closer look

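No receptor had a library far from the rest of its group. Of 56 groups of 4 libraries examined, 5 had 1 value whose gap to its nearest neighbour was a larger part of the group's range than Dixon's critical value at the 95% level allows, all of them sums of marker genes, and chance flags about 1 in 20 groups. Oligodendrocyte markers had a gap of 0.958 of the range in named Qk-KO, with 274.9 CPM in named Qk-KO 4 beside 121.0 to 127.5, and of 0.936 in named WT, with 323.5 CPM in named WT 4 beside 129.4 to 141.9. Neuronal markers had a gap of 0.884 in named Qk-KO, with 18.0 CPM in named Qk-KO 4 beside 4.31 to 5.90, and of 0.961 in named WT, with 15.8 CPM in named WT 4 beside 7.45 to 7.78. Markers of mural cells and fibroblasts had a gap of 0.913 in named Qk-KO, with 69.3 CPM in named Qk-KO 4 beside 7.79 to 13.1. Without both libraries numbered 4 the log2 differences between named Qk-KO and named WT were 0.85 for Gpr31b, 0.41 for Gpr65, 0.17 for Gpr183, -0.02 for Gpr84, -0.34 for Gpr155 and -0.74 for Gpr83.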

How the results depend on the processing

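Between the names, limma called 1 gene, with 1863 at an unadjusted p under 0.05. It called 0 among genes of at least 1 CPM. In 3 alternatives added after seeing the data it called 3 in the 4 libraries whose name and field say the same, 9 in the 4 where they are opposite and 4 without both libraries numbered 4. Leaving out 1 library gave 0 to 7: 7 without named Qk-KO 4, 3 without named Qk-KO 2, 2 without named Qk-KO 1, 0 without named Qk-KO 3, and again 3 when named WT 2 was left out. Between field groups limma called 0, and 0 to 1 with libraries left out. Gpr31b between names moved to 0.55 where the labels say the same and 1.09 where they are opposite, and Gpr84 to -0.33 and 0.15. Each of these sets has 2 libraries a name, and only the set with agreeing labels holds the libraries numbered 4. Label agreement and those libraries cannot be told apart here. Leave-out ranges between names were 0.75 to 0.94 for Gpr31b, 0.22 to 0.43 for Gpr65, 0.11 to 0.24 for Gpr183, -0.21 to 0.0038 for Gpr84, -0.41 to -0.34 for Gpr155 and -0.92 to -0.74 for Gpr83. Between field groups, Gpr83 turned to -0.0018 with quantile normalization and ranged from -0.16 to 0.26 with 1 library left out, and Gpr155 ranged from -0.16 to 0.039; without both libraries numbered 4 they were 0.43 and 0.091. The lowest adjusted p of the 6 receptors between field groups over all settings was 0.844. The cause of these changes was not tested.

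Same-numbered libraries of the 2 names deviated together with r across genes of 0.0462, 0.149, 0.274 and 0.458. The same number was the best match for named Qk-KO 2, 3 and 4, while named Qk-KO 1 correlated best with named WT 3, at 0.125. Whether equal numbers mark paired libraries is not known, and the main fit took them as unpaired. With the replicate block limma called 1 gene between names and 3 between field groups. Between names 2924 genes had an unadjusted p under 0.05 in limma, beside 1863 without the block. The field difference of Gpr83 turned to -0.10 with the block. The field is the same under both names for libraries numbered 1 and for those numbered 2. Field results with the block therefore rest on libraries numbered 3 and 4, where the field differs along with the name. Equal medians shifted all genes by 0.08 between names and -0.02 between field groups.

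Differences of Gpr31b and Gpr83, at 2 to 3 CPM, are shrunken in the deposited values, and Gpr31b shares much of its sequence with other transcripts. Field intervals are wide with 4 libraries a group, and those of Gpr31b, Gpr155 and Gpr83 are wider still in the fit without the name. Depth and the microglial marker sum move with the names.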

Other observations

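The 4 libraries with the highest values of Gpr183 were also the 4 in which mt-Atp6, a mitochondrial gene of ATP synthase, was high. Gpr183 itself ran from 12.86 to 13.26 without a clear break. It was 13.01 in named Qk-KO 4 and 13.09 in named Qk-KO 1, on either side of that division. The log2 values of mt-Atp6 were 12.0015, 13.90, 14.13 and 3.32 in named Qk-KO 1 to 4, against 2.86, 2.95, 14.17 and 2.91 in named WT 1 to 4. Named Qk-KO 4 and named WT 1, 2 and 4 thus lay near 3, and these were also the 4 lowest libraries of Gpr183. The gene was named because its pattern was among the 3 closest to that of Gpr183 (r = 0.941 over 8 libraries, which carries no test), and what sets its level was not tested.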
